A study of Mus musculus with 8 samples.

Results

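The 36 genes described here are targets of the transcription factor p53, with p53 itself (Trp53) and its main negative regulators, measured in mouse embryonic stem cells with and without microRNAs. They were chosen by name: every row of the gene table whose symbol is one of the 36 was taken, and each symbol matched 1 row, so the members are 36 of 49641 genes. Of these, 35 had a mean of at least 1 FPKM over the 8 libraries and were tested. The member left out was Fas, a death receptor, listed at 0.417 and 0.142 FPKM with miR-294, 0.463 and 0.501 with siMbnl1/2, 0.17 and 0.175 in Dgcr8 KO, and 0.236 and 0.126 in WT. FPKM counts sequenced fragments per length of transcript as a share of the library, so it is a level per length that is relative to all other transcripts.

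RNA was sequenced from 8 libraries of embryonic stem cells, 2 in each of 4 groups. In the miR-294 group, Dgcr8 knockout cells (genotype Dgcr8-/-) were transfected with a mimic of the microRNA miR-294. In the siMbnl1/2 group, Dgcr8 knockout cells were transfected with siRNAs against Mbnl1 and Mbnl2, a pair of muscleblind-like splicing regulators. The Dgcr8 KO group was the mock-treated knockout, and the WT group mock-treated wild-type cells. No library is labelled as given a control mimic or control siRNA. Differences of the miR-294 or siMbnl1/2 group from Dgcr8 KO therefore cannot be told apart from effects of transfecting any small RNA. Mimics and siRNAs were used at 50 nM, 16 hours after plating, and the cells grew with serum and LIF, either on irradiated fibroblast feeders or on gelatin; which of these applied to a library is not stated. All libraries are labelled as the V6.5 line on a 129/C57BL/6 background. The WT columns are named V65-mock and the Dgcr8 KO columns ES1-mock, so differences between Dgcr8 KO and WT cannot be told apart from differences between lines. Dgcr8 is a subunit of the Microprocessor, which cuts primary microRNA transcripts, and its loss removes canonical microRNAs. No label says that the 2 replicates of a group came from separate cultures, and p-values here reflect the spread between these libraries, which may be technical.

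The p53 protein is a tetrameric transcription factor held at a low level by Mdm2, a ubiquitin ligase whose own gene p53 activates, and restrained by the related protein Mdm4. DNA damage and other stresses free p53 from these partners, and it then activates genes that stop the cell cycle, repair DNA, change metabolism or start apoptosis. Mouse embryonic stem cells have abundant Trp53 mRNA and protein even when they are not stressed. The miR-290 cluster, to which miR-294 belongs, is the most abundant microRNA family of these cells, and a microRNA binds mRNAs mainly through its seed, bases 2 to 8. The seed is shown here because the match to it in a 3′ UTR is compared with the response to miR-294 further on. The mature sequences, from RefSeq (GRCm38.p6, chromosome 7), carry the seed in capitals:
mmu-miR-294-3p: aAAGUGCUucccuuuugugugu
mmu-miR-291a-3p: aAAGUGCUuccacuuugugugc
mmu-miR-295-3p: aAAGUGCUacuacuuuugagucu
These 3 share 1 seed, and 5 mature microRNAs in the RefSeq table carry it, the others being miR-302b-3p and miR-302d-3p.

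The targeted gene was lower in all libraries from knockout cells: Dgcr8 had 6.81 and 7.28 FPKM with miR-294, 7.90 and 6.58 with siMbnl1/2, 7.89 and 8.50 in Dgcr8 KO, and 22.9 and 21.9 in WT. Mbnl2 had 11.2 and 14.3 FPKM with siMbnl1/2, against 24.7 and 28.6 in Dgcr8 KO. Its difference of -1.01 ± 0.12 (adjusted p = 0.0191 by limma) was no longer called without Dgcr8 KO replicate 2 (adjusted p = 0.121) or without any 1 of the miR-294 or WT libraries (adjusted p = 0.0633 to 0.0654). Mbnl1 had 6.84 and 6.76 FPKM with siMbnl1/2, against 8.0 and 9.42 in Dgcr8 KO, a difference of -0.31 (adjusted p = 0.158). Between 12386 and 12860 genes per library reached 1 FPKM, and depth in reads is unknown. The summed level of the 10 embryonic stem cell markers was 5994 to 6130 FPKM with miR-294, 7535 to 7573 with siMbnl1/2, 6209 to 6739 in Dgcr8 KO and 5749 to 5802 in WT. The marker Dppa5a alone had 3077 to 3165 FPKM with miR-294, 4973 to 5097 with siMbnl1/2, 3770 to 4186 in Dgcr8 KO and 3093 to 3141 in WT. Without it the sums were 2917 to 2965 FPKM with miR-294, 2476 to 2562 with siMbnl1/2, 2438 to 2552 in Dgcr8 KO and 2657 to 2661 in WT. Single markers moved in opposite directions within these sums. In Dgcr8 KO against WT 4 of the 10 rose and 4 fell (adjusted p under 0.05 by limma), where 29.6% and 30.1% of all tested genes did. Nanog averaged 380 FPKM in Dgcr8 KO and 208 in WT, and Pou5f1 742 and 1036. The part of these markers in the results was not tested. The 12 fibroblast markers summed to 2.31 to 4.67 FPKM in every library, with Thy1 alone at or above 1 FPKM. These are bulk samples, so fewer cells of a kind and less RNA per cell cannot be told apart. The median within-group SD over all tested genes, on the log2(FPKM + 1) scale, was 0.0487 with miR-294, 0.121 with siMbnl1/2, 0.102 in Dgcr8 KO and 0.0462 in WT.

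The p53 target genes changed in both directions in cells without Dgcr8. In Dgcr8 KO against WT, 10 of the 35 tested members rose and 13 fell by limma on log2(FPKM + 1), with p-values adjusted by Benjamini-Hochberg over the 12786 tested genes and a threshold of 0.05. Of all tested genes 59.8% were called in that comparison, 29.6% higher and 30.1% lower, so the members' counts lie near the background. Their median difference was -0.12, against 0.00 over all tested genes. The largest rises were those of Rrm2b and Ephx1, and the largest falls those of Zfp365, Plk2 and Rps27l. With miR-294 against Dgcr8 KO, 7 members rose and 13 fell, where 52.2% of all tested genes were called, 22.9% higher and 29.2% lower. The members' median was -0.14, against -0.06 over all tested genes. With siMbnl1/2 against Dgcr8 KO, 4 members rose and 0 fell, where 1.11% of all tested genes were called, 0.868% higher and 0.242% lower. At an unadjusted p under 0.05 in the same limma fit, 26 members were higher and 1 was lower, against 12.7% of all tested genes higher and 5.70% lower at that threshold. The members' median was 0.32, against 0.04 over all tested genes, and 32 of 35 had a positive difference, against 7491 of 12786 tested genes. The comparisons with Dgcr8 KO share its 2 libraries, so their values are set side by side here and no likeness between them is drawn.

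**Figure D1:**
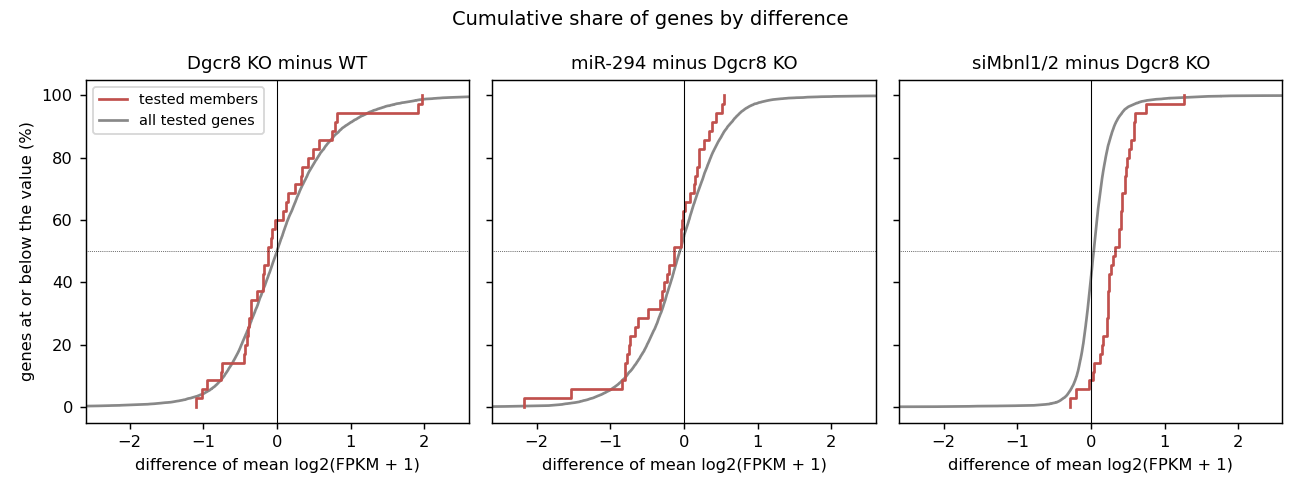
Cumulative share of tested genes (vertical axis, percent) at or below a difference of mean log2(FPKM + 1) (horizontal axis) for the 35 tested members (red) and all 12786 tested genes (grey), in 3 comparisons. The members follow the grey curve closely in Dgcr8 KO minus WT, and lie to its right in siMbnl1/2 minus Dgcr8 KO, where their median is 0.32 against 0.04.

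**Figure D2:**
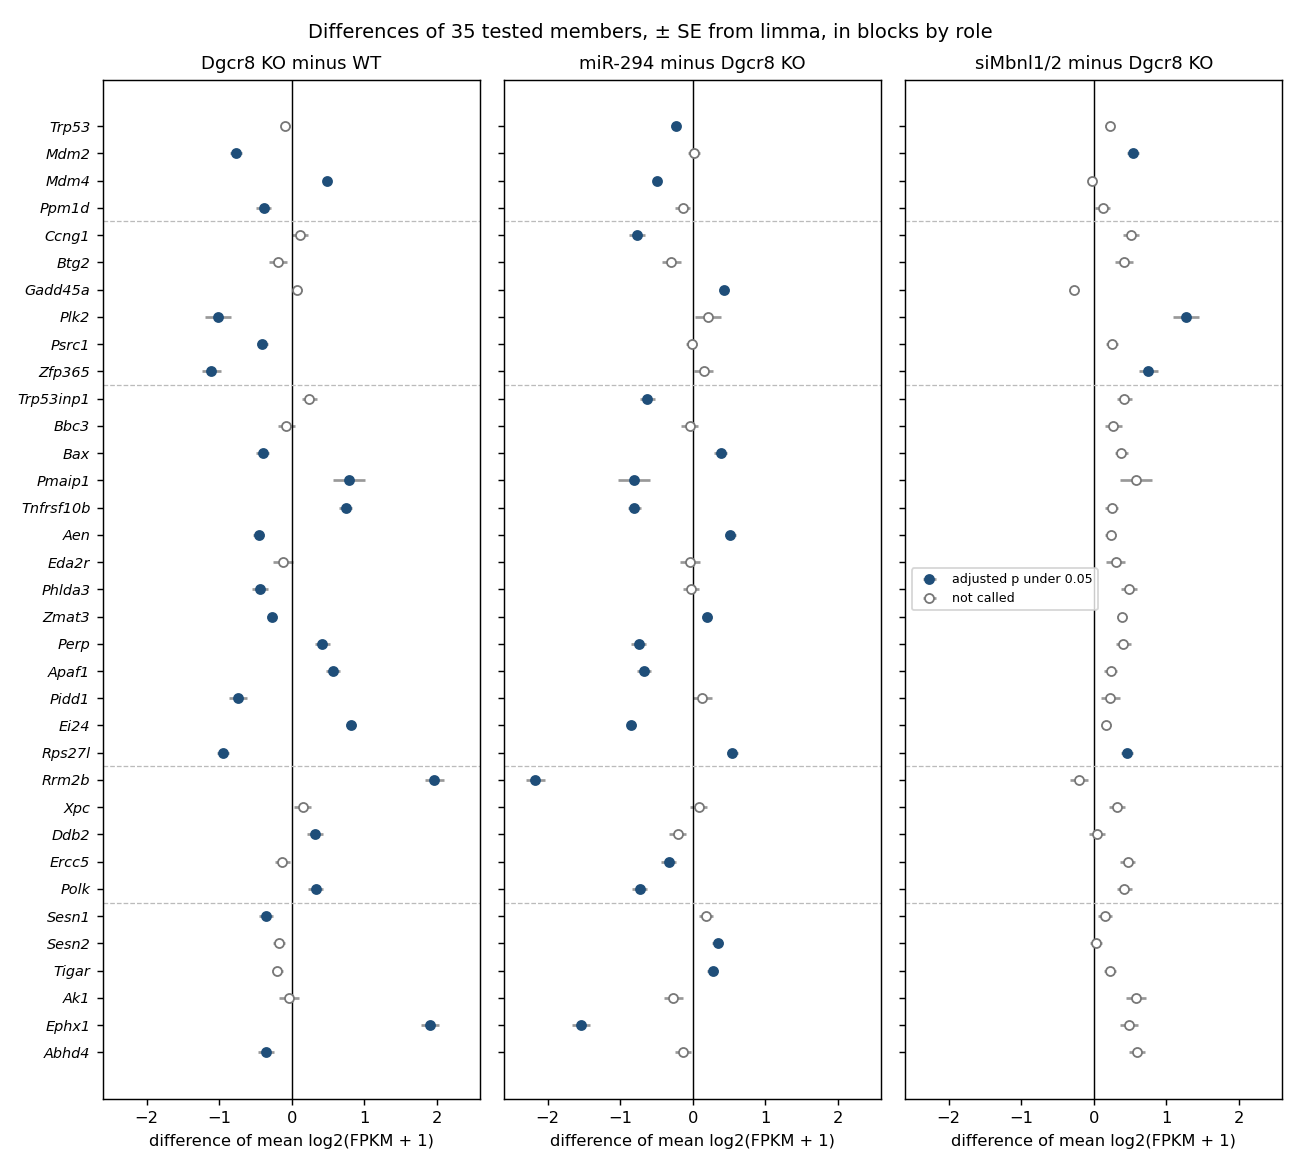
Difference of mean log2(FPKM + 1) ± SE from limma for each of the 35 tested members, in blocks from top to bottom of p53 and its regulators, cell cycle, apoptosis, DNA repair, and metabolism. Filled points passed an adjusted p of 0.05. Rrm2b and Ephx1 have the largest positive differences in Dgcr8 KO minus WT and the largest negative ones in miR-294 minus Dgcr8 KO.

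Among p53 and its regulators, Mdm2 was lower and Mdm4 higher in Dgcr8 KO than in WT, while Trp53 itself was not called. Trp53 (chr11:69580359-69591873, plus strand, mm10) had 159 and 157 FPKM with miR-294, 212 and 221 with siMbnl1/2, 194 and 178 in Dgcr8 KO, and 198 and 196 in WT. The miR-294 libraries were lowest and the siMbnl1/2 libraries highest, with no overlap between these groups and the others. Trp53 fell by 0.23 ± 0.06 with miR-294 against Dgcr8 KO (adjusted p = 0.0148), a call lost without miR-294 replicate 1 (0.0722) or replicate 2 (0.0965). Its difference in Dgcr8 KO against WT was -0.09 ± 0.06 (adjusted p = 0.266), which under quantile normalization turned to 0.23 (adjusted p = 0.0108), and its fall with miR-294 was then -0.48. With siMbnl1/2 against Dgcr8 KO the difference was 0.22 ± 0.06 (adjusted p = 0.123). Mdm2 (chr10:117688888-117710758, minus strand), the ubiquitin ligase that marks p53 for breakdown, had 54.1 and 48.7 FPKM with miR-294, 79.3 and 70.0 with siMbnl1/2, 51.5 and 50.2 in Dgcr8 KO, and 86.5 and 88.0 in WT. The WT libraries were highest and did not overlap any other group, and the miR-294 and Dgcr8 KO libraries overlapped. Mdm2 fell by 0.77 ± 0.08 in Dgcr8 KO against WT (adjusted p = 0.000172), and its difference with miR-294 against Dgcr8 KO was 0.01 ± 0.08 (adjusted p = 0.921). It rose by 0.54 ± 0.08 with siMbnl1/2 against Dgcr8 KO (adjusted p = 0.0378).

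Mdm4, which binds p53 and blocks its activation domain, averaged 90.3 ± 2.65 FPKM with miR-294, 125 ± 1.10 with siMbnl1/2, 127 ± 0.182 in Dgcr8 KO and 90.7 ± 1.29 in WT (SD, n = 2 each). It rose by 0.48 ± 0.06 in Dgcr8 KO against WT (adjusted p = 0.000238; 0.78 under quantile normalization) and fell by 0.49 ± 0.06 with miR-294 against Dgcr8 KO (adjusted p = 0.000363). Its difference with miR-294 against WT was -0.01 ± 0.06 (adjusted p = 0.954). Ppm1d, the phosphatase Wip1 that removes activating phosphates from p53 and its kinases, averaged 7.37 ± 0.0328 FPKM with miR-294, 9.07 ± 1.28 with siMbnl1/2, 8.21 ± 0.174 in Dgcr8 KO and 11.0 ± 0.653 in WT. It fell by 0.38 ± 0.10 in Dgcr8 KO against WT (adjusted p = 0.015), which was lost without Dgcr8 KO replicate 2 (0.0608) or WT replicate 2 (0.102).

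**Figure D3:**
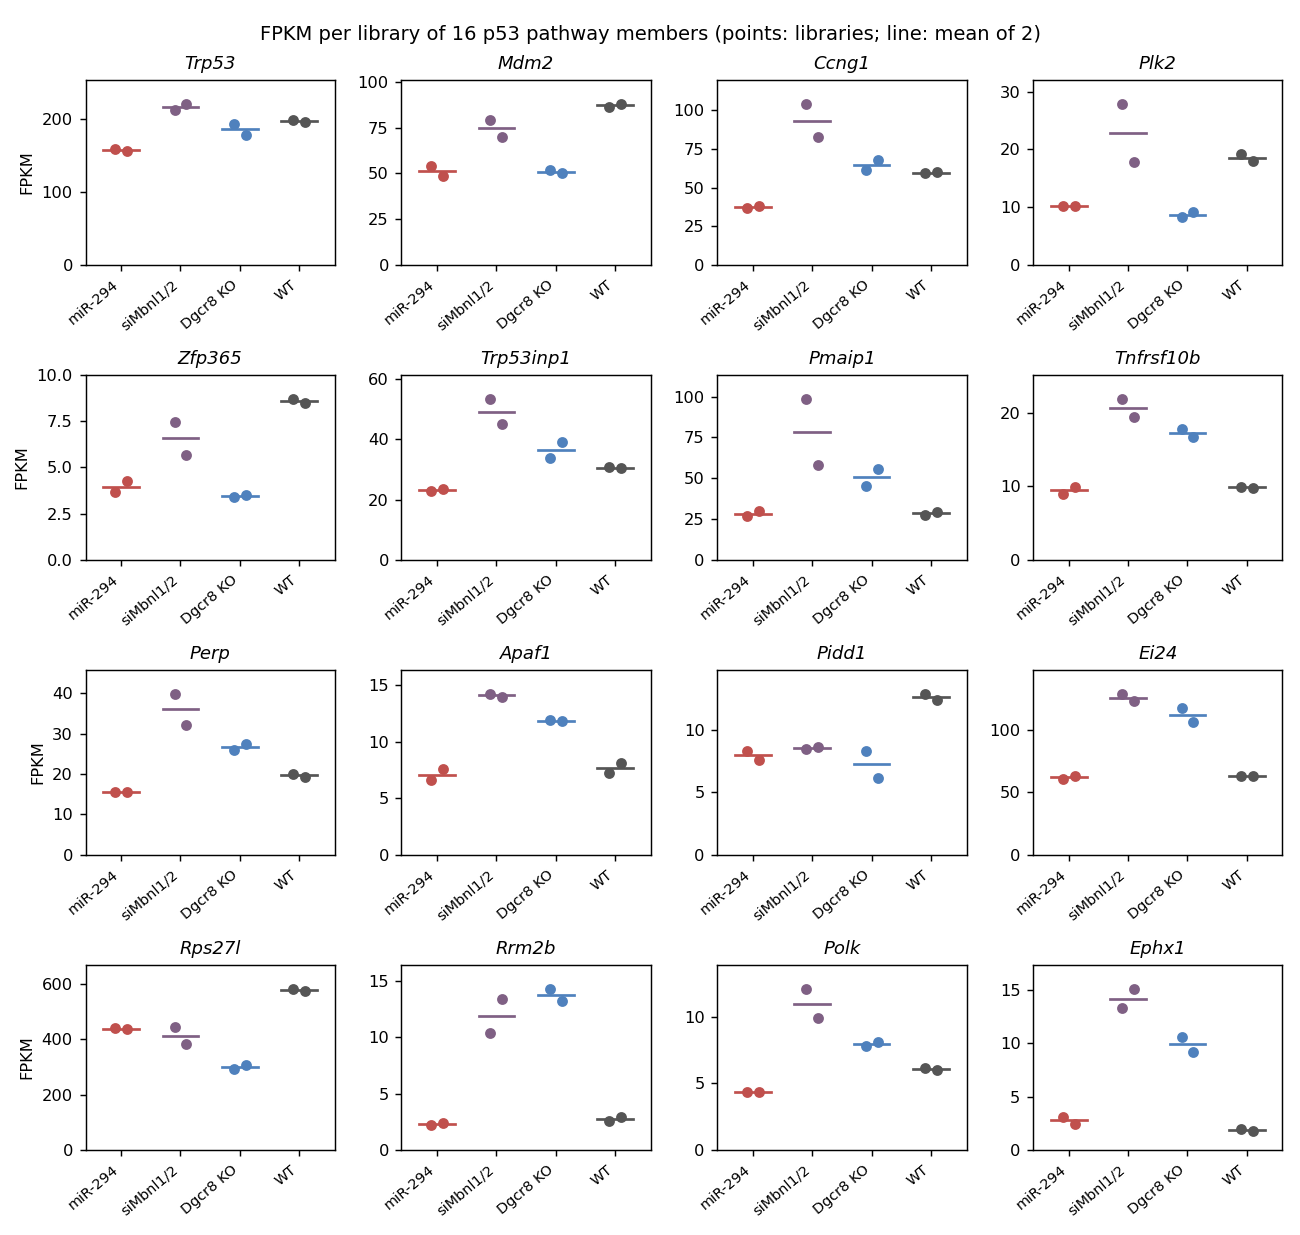
FPKM (vertical axes, from 0) in each library for the 16 members given library by library in the text; points are libraries and lines the mean of 2, in the order miR-294, siMbnl1/2, Dgcr8 KO and WT. Rrm2b, Ei24, Tnfrsf10b and Ephx1 are low with miR-294 and in WT and high in the other groups, whereas Mdm2, Plk2 and Zfp365 are low with miR-294 and in Dgcr8 KO.

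The cell cycle and growth genes among the members fell or were not called in Dgcr8 KO. Of 6 tested, 3 fell against WT and 0 rose (0 also at an unadjusted p under 0.05 by limma). Over all tested genes 30.1% fell and 29.6% rose. Cdkn1a, a cyclin-dependent kinase inhibitor and p53 target outside the members, had 64.4 and 57.1 FPKM in Dgcr8 KO, and 25.9 and 24.9 in WT. Plk2 (chr13:110395044-110400844, plus strand), a polo-like kinase induced by stress, had 10.2 and 10.1 FPKM with miR-294, 27.9 and 17.8 with siMbnl1/2, 8.28 and 9.11 in Dgcr8 KO, and 19.2 and 18.0 in WT. The siMbnl1/2 libraries lay far apart, one above and one just below the WT libraries, and both lay above those of miR-294 and Dgcr8 KO. Plk2 fell by 1.02 ± 0.18 in Dgcr8 KO against WT (adjusted p = 0.00195) and rose by 1.26 ± 0.18 with siMbnl1/2 against Dgcr8 KO (adjusted p = 0.0313). Zfp365 (chr10:67886103-67912662, minus strand), a protein that helps to keep the genome stable under replication stress, had 3.67 and 4.26 FPKM with miR-294, 7.48 and 5.66 with siMbnl1/2, 3.42 and 3.50 in Dgcr8 KO, and 8.72 and 8.49 in WT. The WT libraries were highest, those with siMbnl1/2 next, and no groups overlapped. Zfp365 fell by 1.11 ± 0.13 in Dgcr8 KO against WT (adjusted p = 0.000266), and rose by 0.75 ± 0.13 with siMbnl1/2 against Dgcr8 KO (adjusted p = 0.049). Psrc1, a microtubule-associated protein of the mitotic spindle, averaged 97.0 ± 2.10 FPKM with miR-294, 98.3 ± 8.45 in Dgcr8 KO and 130 ± 6.49 in WT. Its fall by 0.40 ± 0.08 in Dgcr8 KO against WT (adjusted p = 0.00355) was not called under quantile normalization (adjusted p = 0.146).

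Cyclin G1 fell and Gadd45a rose with miR-294 against Dgcr8 KO. Ccng1 (chr11:40748552-40755311, minus strand), an atypical cyclin that recruits a phosphatase to Mdm2, had 37.0 and 37.9 FPKM with miR-294, 104 and 82.6 with siMbnl1/2, 61.5 and 67.9 in Dgcr8 KO, and 59.4 and 59.8 in WT. The miR-294 libraries were lowest and the siMbnl1/2 libraries highest, and no groups overlapped. Ccng1 fell by 0.77 ± 0.11 with miR-294 against Dgcr8 KO (adjusted p = 0.000938), and its difference in Dgcr8 KO against WT was 0.12 ± 0.11 (adjusted p = 0.391). Gadd45a, a stress protein that inhibits the mitotic kinase Cdk1, averaged 182 ± 2.94 FPKM with miR-294, 111 ± 7.39 with siMbnl1/2, 135 ± 5.92 in Dgcr8 KO and 127 ± 2.18 in WT. It rose by 0.43 ± 0.07 with miR-294 against Dgcr8 KO (adjusted p = 0.00147), and by 0.18 under quantile normalization (0.0394). Its difference in Dgcr8 KO against WT was 0.08 ± 0.07 (adjusted p = 0.35), and 0.40 under quantile normalization, where it was called (0.00107). Its annotated exons overlap E230016M11Rik on the other strand, and since it is not stated whether strand was used in counting, reads of the pair cannot be told apart. Btg2, an antiproliferative cofactor of mRNA deadenylation, averaged 14.3 ± 0.511 FPKM with miR-294, 24.2 ± 5.09 with siMbnl1/2, 17.7 ± 0.235 in Dgcr8 KO and 20.3 ± 0.111 in WT, and was not called in any comparison with Dgcr8 KO. Without either siMbnl1/2 library it was called lower in Dgcr8 KO than in WT (-0.19) and lower with miR-294 than in Dgcr8 KO (-0.29). Without siMbnl1/2 replicate 2 it was also called higher with siMbnl1/2 than in Dgcr8 KO (0.62).

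The apoptosis genes split in Dgcr8 KO, with 5 of 14 tested members higher and 6 lower than in WT, where 29.6% of all tested genes were higher and 30.1% lower. The higher ones were Ei24, Pmaip1, Tnfrsf10b, Apaf1 and Perp. Ei24 (chr9:36779159-36797393, minus strand), a membrane protein of the endoplasmic reticulum, had 60.6 and 63.0 FPKM with miR-294, 128 and 123 with siMbnl1/2, 117 and 106 in Dgcr8 KO, and 62.8 and 63.0 in WT. Both siMbnl1/2 and both Dgcr8 KO libraries lay above every miR-294 and WT library. Ei24 rose by 0.82 ± 0.07 in Dgcr8 KO against WT (adjusted p = 5.49e-05) and fell by 0.84 ± 0.07 with miR-294 against Dgcr8 KO (adjusted p = 9.91e-05). Its exons overlap Gm26787 on the other strand. Tnfrsf10b (chr14:69767472-69784403, plus strand), the mouse receptor of the death ligand TRAIL, had 8.98 and 9.86 FPKM with miR-294, 21.9 and 19.4 with siMbnl1/2, 17.7 and 16.6 in Dgcr8 KO, and 9.90 and 9.82 in WT. The miR-294 and WT libraries overlapped at the low end, and the others lay higher without overlap. Tnfrsf10b rose by 0.74 ± 0.09 in Dgcr8 KO against WT (adjusted p = 0.000297) and fell by 0.81 ± 0.09 with miR-294 against Dgcr8 KO (adjusted p = 0.00033). Apaf1, the scaffold of the apoptosome that activates caspase-9, had 6.62 and 7.55 FPKM with miR-294, 14.2 and 14.0 with siMbnl1/2, 11.9 and 11.8 in Dgcr8 KO, and 7.20 and 8.10 in WT. Its miR-294 and WT libraries overlapped, below all the others. It rose by 0.57 ± 0.09 in Dgcr8 KO against WT (adjusted p = 0.00128) and fell by 0.67 ± 0.09 with miR-294 against Dgcr8 KO (adjusted p = 0.000863).

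Pmaip1 and Perp were also higher in Dgcr8 KO than in WT, on calls that rested on single libraries. Pmaip1 (chromosome 18), the BH3-only protein Noxa that neutralizes Mcl1, had 26.8 and 29.8 FPKM with miR-294, 98.6 and 57.8 with siMbnl1/2, 45.0 and 55.8 in Dgcr8 KO, and 27.7 and 29.3 in WT. The siMbnl1/2 libraries of Pmaip1 differed more than those of any other member, by 0.76 on the log2 scale, and the miR-294 and WT libraries overlapped. Pmaip1 rose by 0.79 ± 0.22 in Dgcr8 KO against WT (adjusted p = 0.0169), a call lost without WT replicate 1 (0.077), WT replicate 2 (0.0572) or Dgcr8 KO replicate 2 (0.102). It fell by 0.81 ± 0.22 with miR-294 against Dgcr8 KO (adjusted p = 0.0184), which was lost without Dgcr8 KO replicate 2 (0.106), miR-294 replicate 1 (0.0924) or miR-294 replicate 2 (0.0554). Perp (chr10:18845020-18857073, plus strand), a tetraspan membrane protein of desmosomes, had 15.6 and 15.5 FPKM with miR-294, 39.8 and 32.2 with siMbnl1/2, 26.0 and 27.5 in Dgcr8 KO, and 20.0 and 19.3 in WT. No groups overlapped, with miR-294 lowest and siMbnl1/2 highest. Perp rose by 0.42 ± 0.10 in Dgcr8 KO against WT (adjusted p = 0.00831; 0.0534 without WT replicate 2) and fell by 0.75 ± 0.10 with miR-294 against Dgcr8 KO (adjusted p = 0.000789).

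The apoptosis genes that fell in Dgcr8 KO against WT were Rps27l, Pidd1, Aen, Phlda3, Bax and Zmat3. Rps27l (chr9:66946086-66949516, plus strand), a paralog of a ribosomal protein that binds Mdm2, had 440 and 437 FPKM with miR-294, 445 and 381 with siMbnl1/2, 294 and 306 in Dgcr8 KO, and 581 and 575 in WT. The Dgcr8 KO libraries were lowest, the WT libraries highest, and the miR-294 and siMbnl1/2 libraries overlapped between them. Rps27l fell by 0.94 ± 0.08 in Dgcr8 KO against WT (adjusted p = 5.24e-05), rose by 0.55 ± 0.08 with miR-294 against Dgcr8 KO (adjusted p = 0.00097; 0.28 under quantile normalization, adjusted p = 0.0141), and rose by 0.46 ± 0.08 with siMbnl1/2 against Dgcr8 KO (adjusted p = 0.0466). Reads shared with the near-identical Rps27 could affect its level. Pidd1 (chr7:141438113-141444025, minus strand), the scaffold of the caspase-2 complex, had 8.29 and 7.57 FPKM with miR-294, 8.45 and 8.58 with siMbnl1/2, 8.30 and 6.12 in Dgcr8 KO, and 12.8 and 12.4 in WT. Every library from knockout cells lay below both WT libraries, and the miR-294 libraries overlapped those of Dgcr8 KO. Pidd1 fell by 0.74 ± 0.13 in Dgcr8 KO against WT (adjusted p = 0.00176), and its difference with miR-294 against Dgcr8 KO was 0.13 ± 0.13 (adjusted p = 0.415; 0.32 and 0.0382 without Dgcr8 KO replicate 1).

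Bax, the pore-forming effector of mitochondrial apoptosis, averaged 194 ± 2.74 FPKM with miR-294, 194 ± 3.21 with siMbnl1/2, 149 ± 19.2 in Dgcr8 KO and 196 ± 8.26 in WT. Its exons overlap the predicted gene Gm45808 on the same strand. Its fall by 0.40 ± 0.09 in Dgcr8 KO against WT (adjusted p = 0.00566) was not called under quantile normalization (0.438). Its rise by 0.39 ± 0.09 with miR-294 against Dgcr8 KO (adjusted p = 0.00818) was not called without miR-294 replicate 2 (0.0539) or under quantile normalization (0.242), and was 0.26 without Dgcr8 KO replicate 2. Aen, an exonuclease that degrades DNA in apoptosis, averaged 40.8 ± 0.651 FPKM with miR-294, 28.3 ± 2.19 in Dgcr8 KO and 39.0 ± 1.51 in WT. It fell by 0.45 ± 0.08 in Dgcr8 KO against WT (adjusted p = 0.00145) and rose by 0.52 ± 0.08 with miR-294 against Dgcr8 KO (adjusted p = 0.00108). Zmat3, an RNA-binding zinc finger protein, fell by 0.27 ± 0.07 in Dgcr8 KO against WT (adjusted p = 0.0128; 0.104 without WT replicate 2). Its rise by 0.20 ± 0.07 with miR-294 against Dgcr8 KO (adjusted p = 0.0456) was lost when any 1 library of the miR-294, Dgcr8 KO or WT groups was left out, with an adjusted p of up to 0.241. Phlda3, a pleckstrin homology protein that inhibits Akt, fell by 0.44 ± 0.11 in Dgcr8 KO against WT (adjusted p = 0.0099; 0.0723 without WT replicate 1), and by 0.28 without Dgcr8 KO replicate 2. Trp53inp1 (chr4:11156431-11174379, plus strand), a nuclear p53 cofactor, had 22.8 and 23.7 FPKM with miR-294, 53.5 and 45.1 with siMbnl1/2, 33.7 and 39.3 in Dgcr8 KO, and 30.7 and 30.5 in WT. The groups did not overlap, with miR-294 lowest and siMbnl1/2 highest. It fell by 0.63 ± 0.10 with miR-294 against Dgcr8 KO (adjusted p = 0.00189), and its difference in Dgcr8 KO against WT was 0.24 ± 0.10 (adjusted p = 0.0773), called without Dgcr8 KO replicate 1 (0.038), without either siMbnl1/2 library (0.0352 and 0.0356) and under quantile normalization (0.0423). Bbc3, the BH3-only protein Puma, and Eda2r, a receptor of ectodysplasin A2, were not called in any of the 3 comparisons with Dgcr8 KO, with Bbc3 averaging 14.7 FPKM with miR-294, 18.5 with siMbnl1/2, 15.2 in Dgcr8 KO and 16.0 in WT.

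Of the 5 DNA repair members, 3 rose in Dgcr8 KO against WT, where 29.6% of all tested genes rose, and 3 fell with miR-294 against Dgcr8 KO, where 29.2% fell. Of these calls only those of Rrm2b, and that of Polk with miR-294, held when any 1 library was left out. Rrm2b (chr15:37923952-37961318, minus strand), the p53-inducible subunit of ribonucleotide reductase that supplies nucleotides for repair, had 2.18 and 2.38 FPKM with miR-294, 10.4 and 13.4 with siMbnl1/2, 14.3 and 13.2 in Dgcr8 KO, and 2.62 and 2.94 in WT. The siMbnl1/2 and Dgcr8 KO libraries overlapped, and all of them lay above the miR-294 and WT libraries. Rrm2b rose by 1.97 ± 0.13 in Dgcr8 KO against WT (adjusted p = 2.06e-05) and fell by 2.17 ± 0.13 with miR-294 against Dgcr8 KO (adjusted p = 4.57e-05). It had the largest difference of the members with miR-294 against Dgcr8 KO. In Dgcr8 KO against WT it and Ephx1 were the highest, in an order that turned with a pseudocount of 0.1 (2.27 for Rrm2b and 2.32 for Ephx1). Its exons overlap Gm49085 on the other strand, whose reads cannot be told apart from its own here. Polk (chr13:96480689-96542485, minus strand), a DNA polymerase that copies past damaged bases, had 4.37 and 4.36 FPKM with miR-294, 12.1 and 9.88 with siMbnl1/2, 7.76 and 8.07 in Dgcr8 KO, and 6.15 and 6.01 in WT. No groups overlapped, and the miR-294 libraries were lowest. Polk fell by 0.73 ± 0.10 with miR-294 against Dgcr8 KO (adjusted p = 0.000981). Its rise by 0.33 ± 0.10 in Dgcr8 KO against WT (adjusted p = 0.026) was lost without any 1 of the 4 libraries compared (0.0613 to 0.117) and under quantile normalization (0.338).

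Ddb2, which recognizes ultraviolet damage, averaged 7.96 ± 0.0829 FPKM with miR-294, 9.35 ± 0.127 in Dgcr8 KO and 7.31 ± 0.607 in WT. Its rise by 0.32 ± 0.11 in Dgcr8 KO against WT (adjusted p = 0.0387) was lost without any 1 library of the miR-294, Dgcr8 KO or WT groups (0.0645 to 0.212) and under quantile normalization (0.243). Its exons overlap those of Acp2 on the other strand, and reads of the pair cannot be told apart. Ercc5, an endonuclease of nucleotide excision repair, averaged 7.17 ± 0.140 FPKM with miR-294, 13.3 ± 1.56 with siMbnl1/2, 9.30 ± 0.661 in Dgcr8 KO and 10.2 ± 0.197 in WT. Its fall by 0.33 ± 0.10 with miR-294 against Dgcr8 KO (adjusted p = 0.0252) was lost without miR-294 replicate 1 (0.0895) or 2 (0.118), Dgcr8 KO replicate 1 (0.113), or either WT library (0.0507 each), and under quantile normalization (0.258). Xpc, the damage sensor of that pathway, averaged 8.94 FPKM with miR-294, 10.8 with siMbnl1/2, 8.40 in Dgcr8 KO and 7.46 in WT. It was not called in any comparison of the main fit. Without siMbnl1/2 replicate 1 it was called higher with siMbnl1/2 than with miR-294 (0.38, and 0.24 in the main fit). Under 1 of the 15 alternatives it was called higher with miR-294 than in WT.

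Among the 6 metabolism and stress members Ephx1 stood out. Ephx1 (chr1:180976210-181020904, minus strand), the microsomal epoxide hydrolase that detoxifies reactive epoxides, had 3.08 and 2.45 FPKM with miR-294, 13.3 and 15.1 with siMbnl1/2, 10.7 and 9.17 in Dgcr8 KO, and 1.98 and 1.82 in WT. No groups overlapped, and the siMbnl1/2 libraries were highest. Ephx1 rose by 1.91 ± 0.12 in Dgcr8 KO against WT (adjusted p = 2.06e-05) and fell by 1.54 ± 0.12 with miR-294 against Dgcr8 KO (adjusted p = 0.000101). Its exons overlap the predicted gene Gm36961 on the same strand. The sestrins, antioxidant proteins that restrain mTORC1, and Tigar, a phosphatase that lowers glycolytic flux, had smaller differences. Sesn1 averaged 5.68 ± 0.0836 FPKM with miR-294, 4.90 ± 0.315 in Dgcr8 KO and 6.53 ± 0.325 in WT. It fell by 0.35 ± 0.10 in Dgcr8 KO against WT (adjusted p = 0.0158), a call lost without WT replicate 1 (0.11), WT replicate 2 (0.0525) or Dgcr8 KO replicate 1 (0.0723). With quantile normalization the Sesn1 difference was -0.54. Sesn2 averaged 48.6 ± 0.175 FPKM with miR-294, 38.1 ± 3.65 in Dgcr8 KO and 43.1 ± 0.586 in WT. It rose by 0.34 ± 0.08 with miR-294 against Dgcr8 KO (adjusted p = 0.00933), and not without miR-294 replicate 1 (0.0536) or replicate 2 (0.0574). Tigar rose by 0.27 ± 0.08 with miR-294 against Dgcr8 KO (adjusted p = 0.0205), and not without Dgcr8 KO replicate 1 (0.0835), miR-294 replicate 1 (0.0983) or miR-294 replicate 2 (0.0953). Its exons overlap Platr31 on the other strand. Abhd4, a lipase of N-acyl phospholipids, averaged 17.8 ± 1.23 FPKM with miR-294, 30.4 ± 2.98 with siMbnl1/2, 19.8 ± 2.75 in Dgcr8 KO and 25.4 ± 0.484 in WT. It fell by 0.35 ± 0.11 in Dgcr8 KO against WT (adjusted p = 0.0287), a call lost without WT replicate 1 (0.12), WT replicate 2 (0.0898) or Dgcr8 KO replicate 2 (0.149). Ak1, an adenylate kinase that balances adenine nucleotides, averaged 28.5 FPKM with miR-294, 52.3 with siMbnl1/2, 34.7 in Dgcr8 KO and 35.3 in WT. It was not called in any comparison with Dgcr8 KO. Leaving out 1 library, it was called with miR-294 (-0.44 without Dgcr8 KO replicate 2) and with siMbnl1/2 (0.72 without siMbnl1/2 replicate 2).

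The members' 3′ UTRs were searched for AGCACTT, the DNA complement of the miR-294 seed, on the sense strand of 1 GENCODE M21 coding transcript per gene. It was found in 8 of 36 members (22.2%), against 1843 of 11571 tested genes with a coding transcript (15.9%). The sites are shown because miR-294 was the microRNA put back. They are 25 bases each, mm10, with the seed match in capitals:
Rrm2b (chr15:37926862-37926886, minus strand): ttcctttttgtcataAGCACTTaag
Ei24 (chr9:36779886-36779910, minus strand): tccagctgtttttttAGCACTTgcc
Ccng1 (chr11:40750550-40750574, minus strand): agtagttactgaaatAGCACTTctt
Polk (chr13:96481581-96481605, minus strand): cttatcttacatataAGCACTTggt
Trp53inp1 (chr4:11174211-11174235, plus strand): cagaatgaacagcacAGCACTTtgc
Abhd4 (chr14:54267991-54268015, plus strand): accacagtgaacaagAGCACTTcca
Sesn2 (chr4:132492443-132492467, minus strand): cagccaccaccgacaAGCACTTtgc
Zmat3 (chr3:32339102-32339126, minus strand): gctgtgggtttccgaAGCACTTgga
Of these 8, Rrm2b, Ei24, Ccng1, Polk and Trp53inp1 fell with miR-294 against Dgcr8 KO, Sesn2 and Zmat3 rose, and Abhd4 was not called (-0.14 ± 0.11, adjusted p = 0.341). The median difference of the 8 was -0.68. Of the 27 tested members without the match, 8 fell and 5 rose, with a median of -0.03. Over all tested genes, 46.3% of the 1843 with the match fell and 12.9% rose, against 28.0% and 25.4% of the 9728 without it. Genes with a match had longer 3′ UTRs, with a median of 2384 bases against 799 without, and the part of length in this was not tested. Ephx1, Pmaip1, Tnfrsf10b, Perp, Apaf1, Mdm4, Ercc5 and Trp53 also fell with miR-294 and do not hold these letters in the 3′ UTR searched.

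**Figure D4:**
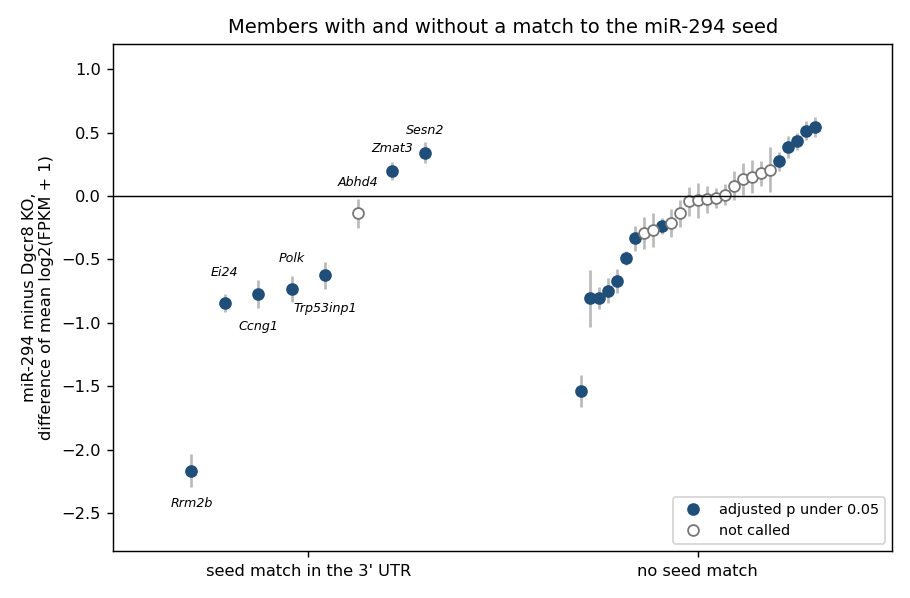
Difference of mean log2(FPKM + 1) ± SE, miR-294 minus Dgcr8 KO (vertical axis), for the 8 tested members with AGCACTT in the 3′ UTR (left) and the 27 without (right), in rising order. The medians are -0.68 and -0.03, and 5 of the 8 on the left and 8 of the 27 on the right fell.

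With siRNAs against Mbnl1 and Mbnl2 most p53 targets had small positive differences, and 4 were called. The called members were Mdm2, Plk2, Zfp365 and Rps27l, whose values are given above. Each call was lost without any 1 of the WT libraries (adjusted p = 0.0794 to 0.127), the Dgcr8 KO libraries (0.072 to 0.188) or the miR-294 libraries (0.0875 to 0.124), and those of Mdm2 and Zfp365 also without siMbnl1/2 replicate 1 (0.053 and 0.0597). Calls were also gained without siMbnl1/2 replicate 2: Ccng1, Btg2, Perp, Pmaip1, Polk, Ercc5, Ak1, Zmat3 and Trp53inp1 higher, and Gadd45a lower. The higher ones then had differences from 0.42 for Zmat3 to 0.96 for Pmaip1, and Gadd45a had -0.35. The members' median difference was 0.36 without siMbnl1/2 replicate 2 and 0.25 without replicate 1. The 2 siMbnl1/2 libraries differed over the members by a median of 0.178 on the log2 scale, against 0.171 over all tested genes. In the other groups the members' median gap was 0.0368 with miR-294, 0.131 in Dgcr8 KO and 0.0492 in WT. Under median-of-ratios scaling 2 members rose and 1, Gadd45a, fell (-0.32, adjusted p = 0.0412). The members' median of 0.32 was 0.28 under that scaling, and the share of all tested genes called there was not set beside these counts. Cdkn1a, the cyclin-dependent kinase inhibitor p21 and the best known p53 target, is no member and had 112 and 106 FPKM with siMbnl1/2, against 64.4 and 57.1 in Dgcr8 KO, a rise by 0.84 ± 0.08 (adjusted p = 0.0124; 0.0658 without Dgcr8 KO replicate 2).

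Set directly against miR-294, siMbnl1/2 gave 21 members higher and 3 lower of 35, where 54.0% of all tested genes were called, 33.0% higher and 21.0% lower. The members' median difference was 0.51, against 0.10 over all tested genes. Among the higher ones were 3 of the 4 regulators (Trp53, Mdm2 and Mdm4) and 3 of the 5 repair genes (Rrm2b, Polk and Ercc5). Ephx1 was higher with siMbnl1/2 than with miR-294 by 2.02 ± 0.12 (adjusted p = 4.09e-05), Rrm2b by 1.96 ± 0.13 (4.32e-05), Pmaip1 by 1.39 ± 0.22 (0.00161) and Ccng1 by 1.29 ± 0.11 (0.0001). Btg2 and Ak1, not called against Dgcr8 KO, were higher by 0.71 ± 0.13 (adjusted p = 0.0027) and 0.85 ± 0.13 (0.00145). The 3 lower members were Gadd45a (-0.71 ± 0.07, adjusted p = 0.000158), Sesn2 (-0.31 ± 0.08, 0.0133) and Aen (-0.28 ± 0.08, 0.0149). The calls of Sesn2 and Aen were lost without either miR-294 library (0.0661 to 0.0897), and those of Psrc1 and Zfp365 among the higher members without miR-294 replicate 1 (0.129 and 0.0504). Zfp365 was also lost under quantile normalization (0.0839). Psrc1 was also lost without miR-294 replicate 2 (0.0842) or siMbnl1/2 replicate 1 (0.0887).

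Knockout cells given miR-294 still differed from WT in p53 targets. Against WT, 1 member was higher and 15 were lower, where 26.5% of all tested genes were called, 11.8% higher and 14.7% lower. The members' median was -0.20, against -0.05 over all tested genes. The higher member was Gadd45a (0.51 ± 0.07, adjusted p = 0.00194). Among the lower ones were Zfp365 (-0.95 ± 0.13, adjusted p = 0.00225), Plk2 (-0.81 ± 0.18, 0.0156), Mdm2 (-0.75 ± 0.08, 0.000911), Ccng1 (-0.66 ± 0.11, 0.00498) and Pidd1 (-0.61 ± 0.13, 0.0126). Of the members higher in Dgcr8 KO than in WT, Polk was called lower with miR-294 than in WT (-0.40 ± 0.10, adjusted p = 0.0283; 0.124 to 0.154 without any 1 of the 4 libraries compared). The others were not called: Rrm2b, Ei24, Tnfrsf10b, Apaf1, Pmaip1 and Mdm4 had differences from -0.20 ± 0.13 for Rrm2b to -0.01 ± 0.06 for Mdm4, and Ddb2 had 0.11 ± 0.11. Perp (-0.32 ± 0.10, adjusted p = 0.0526) and Ephx1 (0.37 ± 0.12, 0.0618) lay near the threshold, and both passed it without either siMbnl1/2 library (0.00894 to 0.0472). The calls of Zfp365, Mdm2 and Ccng1 held when any 1 library was left out. Those of Plk2 and Pidd1 were lost without any 1 of the 4 libraries compared (0.0558 to 0.0938). In all, 3 members were called lower without miR-294 replicate 1, without miR-294 replicate 2 or without WT replicate 1, and 4 without WT replicate 2. Under median-of-ratios scaling 3 members were higher and 12 lower. The shares of all tested genes given above are from the main fit. Those under the leave-out fits and that scaling were not set beside these counts.

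The promoters of the members were searched for the p53 half-site, the 10-base consensus of which p53 binds a pair, and which reads alike on both strands. RefSeq windows of 250 bases before to 50 bases after the transcription start were found for 28 of 36 members, 40 windows in all. Rrm2b, Tnfrsf10b, Pmaip1, Perp, Ddb2, Zmat3, Trp53inp1 and Xpc had no window and were not searched. Of these the first-named 5 rose and Zmat3 fell in Dgcr8 KO against WT. A half-site was present in 13 of the 40 windows (32.5%), against 2745 of 32851 windows in the whole table (8.36%). By gene that is 12 of 28 members (42.9%), against 2582 of 27025 genes (9.55%), and since the members are known as p53 targets this is a description of the set. A pair of half-sites at most 13 bases apart was found in 0 of the 40 windows and in 24 of all 32851 (0.0731%). Elements for p53 further from the starts used, which can include those in first introns, lie outside these windows. The members with a half-site were Abhd4, Aen, Bax, Ccng1, Ei24, Gadd45a, Mdm2, Polk, Ppm1d, Rps27l, Sesn1 and Trp53, which include genes that rose and genes that fell in Dgcr8 KO. The promoters of 3 of them are shown, a pair that fell in Dgcr8 KO (Mdm2 and Rps27l) and 1 that rose (Ei24), from RefSeq, GRCm38.p6, with half-sites in capitals:
Mdm2 (chr10:117710709-117711008, minus strand): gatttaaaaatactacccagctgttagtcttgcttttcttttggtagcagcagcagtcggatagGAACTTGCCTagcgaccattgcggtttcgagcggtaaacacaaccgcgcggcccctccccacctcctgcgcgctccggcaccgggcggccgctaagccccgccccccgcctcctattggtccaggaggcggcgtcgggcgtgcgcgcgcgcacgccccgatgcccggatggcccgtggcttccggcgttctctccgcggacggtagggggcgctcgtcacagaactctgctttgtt
Rps27l (chr9:66946163-66946462, plus strand): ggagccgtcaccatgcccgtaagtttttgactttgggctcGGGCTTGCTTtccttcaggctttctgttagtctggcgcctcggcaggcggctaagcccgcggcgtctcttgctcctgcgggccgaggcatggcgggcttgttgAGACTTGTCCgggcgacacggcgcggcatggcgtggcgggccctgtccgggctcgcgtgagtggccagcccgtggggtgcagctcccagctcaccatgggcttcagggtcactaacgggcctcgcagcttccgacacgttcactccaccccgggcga
Ei24 (chr9:36797285-36797584, minus strand): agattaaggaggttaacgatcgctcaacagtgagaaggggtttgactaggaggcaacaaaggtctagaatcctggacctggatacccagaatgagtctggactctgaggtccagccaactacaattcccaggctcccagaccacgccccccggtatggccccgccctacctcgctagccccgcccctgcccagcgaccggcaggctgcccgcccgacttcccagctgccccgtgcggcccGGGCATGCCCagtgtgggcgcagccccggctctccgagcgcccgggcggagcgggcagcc
In Mdm2 the half-site starts 186 bases before the transcription start, and in Ei24 10 bases before it. In Rps27l 2 separate half-sites start 210 and 107 bases before the transcription start used for the window shown. That window lies inside the gene as listed above, which begins at 66946086. The other Rps27l window (chr9:66945836-66946135), which spans the listed gene start, held 0 half-sites.

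The rest of the pathway was taken from 3 lists of other genes. Of 18 upstream kinases and sensors, all tested, 4 rose and 7 fell in Dgcr8 KO against WT, and 1 rose and 3 fell with miR-294 against Dgcr8 KO. Over all tested genes 29.6% rose and 30.1% fell in Dgcr8 KO, and 22.9% rose and 29.2% fell with miR-294. Their most changed called members were Mdc1, Trp53bp1 and Brca1, mediators of the response to broken DNA, which rose by 0.99, 0.79 and 0.68 in Dgcr8 KO against WT. Of 24 tested p53 modifiers and cofactors (27 listed), 4 rose and 5 fell in Dgcr8 KO, and 3 rose and 5 fell with miR-294. The lysine methyltransferase genes Setd7 and Smyd2 rose by 1.18 and 1.00 in Dgcr8 KO against WT and fell by 0.90 and 1.10 with miR-294 against Dgcr8 KO. Cdkn2a, whose Arf product inhibits Mdm2, rose by 0.94 in Dgcr8 KO and fell by 0.99 with miR-294. Levels are per gene, so whether the Arf transcript changed is not known. Of 31 tested further p53 targets (34 listed), 6 rose and 10 fell in Dgcr8 KO, 7 rose and 10 fell with miR-294, and 2 rose and 0 fell with siMbnl1/2, where 12 were higher and 3 lower at an unadjusted p under 0.05 by limma (12.7% and 5.70% over all tested genes). Cdkn1a, on that list, had 17.8 and 16.1 FPKM with miR-294, 112 and 106 with siMbnl1/2, 64.4 and 57.1 in Dgcr8 KO, and 25.9 and 24.9 in WT, with no overlap between groups. The proapoptotic gene Siva1 fell by 1.35 in Dgcr8 KO against WT and rose by 1.03 with miR-294 against Dgcr8 KO. These lists, like the members, moved in both directions in Dgcr8 KO, with medians from -0.16 to -0.02.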

How the data were processed

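RNA-seq of 8 libraries was analysed from 1 table of FPKM per gene and library, deposited by the authors. Per the submitters' processing notes, the tools were STAR 2.5.0 and Cufflinks 2.2.1 with the genome build mm10. The annotation release, and whether strand was used in counting, are not given in the sources used here, although the libraries were made with a dUTP protocol per the labels' protocols. FPKM is relative to the library total, so a gain of abundant transcripts lowers all other values. Reads per gene were not recovered, so depth is unknown and no counting interval is given.

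Values were analysed as log2(FPKM + 1), and differences are on that scale, which understates changes of low genes. Genes with a mean of at least 1 FPKM over the 8 libraries were tested, 12786 of 49641. limma 3.58.1 (R 4.3.3) fitted 4 group means over all 8 libraries, with a trended and robust moderated variance, two-sided tests and Benjamini-Hochberg adjustment over all tested genes. A gene was called at an adjusted p under 0.05. In simulated data for Dgcr8 KO minus WT with 200 of 12786 genes changed, 78 of 100 changes of 2-fold and 39 of 100 of 1.5-fold were recovered. There were 8 false calls. The simulation gave all groups the same spread per gene. In the data 59.8% of tested genes were called in that comparison and the spread differed between groups, so these rates need not hold for it.

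The members and lists were chosen with earlier results of these data known. The 16 members given library by library and the pathway genes named followed a rule on the size of their called changes, and Cdkn1a, Dgcr8, Mbnl1 and Mbnl2 were named as checks. Groups came from the sample titles and columns from their names. Replicate number was left out of the model. Alternatives were a pseudocount of 0.1, other filters, 2 other scalings, a replicate block, the libraries of the 2 groups alone and leaving out each library. Coordinates are 1-based. Sequences came from RefSeq (GRCm38.p6) and from mm10 with GENCODE M21.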

Additional observations from a re-analysis of the deposited data

How the results depend on the processing

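Under 15 alternatives, Trp53 reversed to 0.23 in Dgcr8 KO minus WT and Bax to 0.22 in siMbnl1/2 minus miR-294 (main difference -0.01), both under quantile normalization, which moved the median of all genes in siMbnl1/2 minus miR-294 to -0.02 from 0.10. The cause was not tested. The count of members higher with siMbnl1/2 than in Dgcr8 KO was 4. It stayed 4 with a pseudocount of 0.1 and under quantile normalization. It was 6 with a filter at a mean of 5 FPKM and 0 without a filter on low values. Under median-of-ratios scaling it was 2, and with the replicate block 0. With the libraries of the 2 groups alone, which hold fewer samples to estimate the spread, it was also 0. In Dgcr8 KO against WT that last setting kept 10 higher and 13 lower. The main fit shares its estimate of the spread over all groups. The median within-group SD was 0.121 with siMbnl1/2 and 0.102 in Dgcr8 KO, against 0.0487 with miR-294 and 0.0462 in WT. Why the siMbnl1/2 count dropped was not tested. The count lower with siMbnl1/2 than in Dgcr8 KO was 0, and 1 under median-of-ratios scaling. Members higher with miR-294 than in WT numbered 1, and 2 with a pseudocount of 0.1, 3 under median-of-ratios scaling and 4 with the 2 groups alone. The share of all tested genes called under each alternative was not set beside these counts.

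Leaving out 1 library at a time gave 6 to 11 members higher in Dgcr8 KO than in WT (6 without WT replicate 2) and 9 to 14 lower. With miR-294 against Dgcr8 KO it gave 3 to 8 higher (3 without miR-294 replicate 2, 4 without replicate 1) and 10 to 14 lower. With siMbnl1/2 against Dgcr8 KO it gave 0 to 13 higher and 0 to 1 lower. With siMbnl1/2 against miR-294 it gave 19 to 23 higher and 1 to 4 lower (1 without either miR-294 library), and with miR-294 against WT 1 to 2 higher and 3 to 16 lower. The replicate block took away the 4 calls with siMbnl1/2 against Dgcr8 KO (adjusted p = 0.0723 to 0.104), but the numbers are not stated to pair samples, and same-numbered libraries correlated in their deviations at only -0.0495 to 0.191 over pairs of groups. Leaving out a library can move the calls of all genes, and the share of all tested genes called was not set beside these leave-out counts. The groups hold 2 libraries each and depth is unknown, so small differences of low genes cannot be resolved.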
